A study of Prunus persica with 2 samples.

Results

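Phenylalanine ammonia-lyase (PAL) was followed in wounded peach (Prunus persica) fruit through 2 gene rows, Prupe.6G235400 and Prupe.2G326300, chosen by identifier as PAL1 and PAL2 out of 27806 rows in the gene table. The RNA came from wound tissue of fruit whose wounds had been given 30 μL of sterilized water, or 30 μL of a suspension of Pichia membranaefaciens, a yeast tested on harvested fruit as an antagonist of rot fungi. Both groups were kept at 28 °C and 95% relative humidity and sampled on day 3. The series asked which genes related to resistance differ between tissue with and without the yeast. There is 1 library per treatment, called the water and the yeast library here, so the spread between fruit of the same treatment is unknown and no test was made. The labels give neither the cultivar, nor the ripeness of the fruit, nor the number of fruit behind each library.

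PAL removes ammonia from phenylalanine and gives trans-cinnamic acid, the entry point of the phenylpropanoid pathway. From cinnamic acid, plants make lignin for cell walls, flavonoids, chlorogenic acid and other phenolic compounds. PAL genes form small families, and in many plants wounding and microbes are known to raise the expression of some of their members.

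The PAL names come from the selection and not from the files, which pair no identifier with a product. The annotated structures of the 2 genes differ. Prupe.6G235400 lies on the minus strand of Pp06 from 23639324 to 23642649 and has 1 annotated transcript of 2 exons and 2623 bases, with a single intron of 703 bases. A single intron is the usual arrangement in PAL genes of flowering plants, and 2623 bases leave room for a coding sequence of up to 874 residues. Of 26873 annotated genes, 4518 have 2 exons, and 426 of these are at least as long as Prupe.6G235400, so the structure alone does not identify a PAL gene. Prupe.2G326300 lies on the minus strand of Pp02. Its annotated transcript has 4 exons and 1336 bases between 30110011 and 30112976, with 3 introns that add up to 1630 bases, and could code for at most 445 residues. The exon bases of its listed transcripts together were inferred as 1732 from the deposited values, as described below. They would allow at most 577 residues, fewer than a full-length plant PAL subunit has. The listed transcripts of Prupe.2G326300 are therefore too short for a full-length PAL. Whether they are complete was not tested, and both genes are called by their identifiers below. No sequence was at hand to check either name.

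The gene with the PAL-type structure was far more abundant in the wound that received the yeast, and the other gene was about equally abundant in both wounds. Levels are given as FPKM, fragment numbers divided by exon length and by the size of the library, which allows genes of different length to be compared. Prupe.6G235400 had 1.12 FPKM in the water library and 12.4 FPKM in the yeast library. The first value rested on about 79 fragments (95% Poisson interval of the FPKM 0.890 to 1.40) and the second on about 815 (11.5 to 13.2). The intervals cover counting error only, and they do not overlap. The mean coverage of its transcript was 9.04 reads per base with water and 93.2 with yeast.

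Prupe.2G326300 had 7.69 FPKM in the water library and 8.09 FPKM in the yeast library. These values rested on about 357 and 352 fragments, with intervals of 6.92 to 8.53 and 7.27 to 8.98 FPKM. The intervals overlap over most of their width, so a difference between the libraries was not detectable at this depth.

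**Figure D1:**
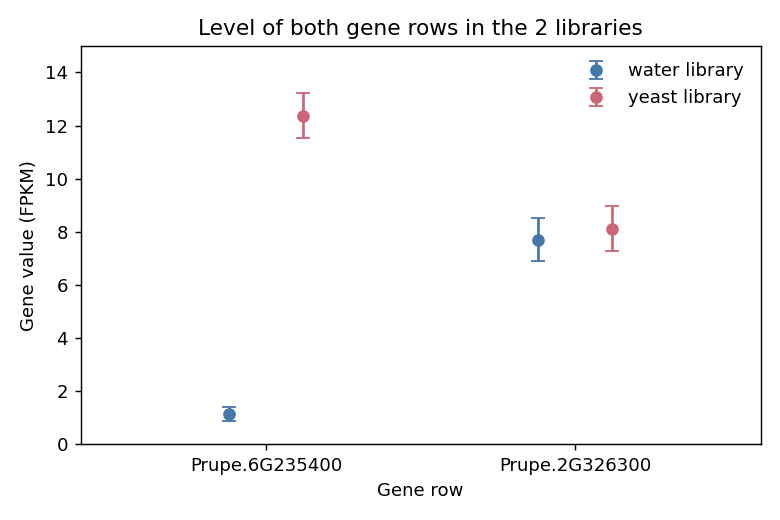
Gene values in FPKM (vertical axis, linear, from 0) of both gene rows in the water and the yeast library; points are the single deposited values and bars are 95% Poisson intervals from estimated fragments. Prupe.6G235400 stands at 1.12 FPKM with water and 12.4 with yeast, while the values of Prupe.2G326300 lie at 7.69 and 8.09.

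For Prupe.6G235400 the yeast library was 11.0-fold above the water library, with a counting interval of 8.72 to 14.0. On the scale of log2(FPKM + 1), the difference of yeast minus water was 2.65 (counting interval 2.35 to 2.98). For Prupe.2G326300 the ratio was 1.05, with a counting interval of 0.905 to 1.22, and the difference was 0.06 (-0.13 to 0.26). The counting intervals of the ratios do not overlap. Differences between fruit, for which there are no replicates, are not part of these intervals. In RNA from bulk tissue, more cells that express a gene and more RNA per cell cannot be told apart.

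The difference of Prupe.6G235400 was among the largest upward ones in the gene table. Rows that reached 1 FPKM in either library were taken as measured, and a row counted as higher or lower from a difference of 1 upward in size on the log2(FPKM + 1) scale. By this rule 3.03% of 14268 annotated rows counted in either direction, with 1.45% higher and 1.58% lower in the yeast library. Of the 2 genes, 1 counted, Prupe.6G235400, which was higher. Its upward difference ranked 15 among the 14268 annotated rows and 20 among all 15197 measured rows, newly assembled loci included, of which 1.61% counted as higher and 1.7% as lower. With a pseudocount of 5 in place of 1, its difference was 1.50 and its rank among annotated rows was 28. The central 90% of annotated rows lay between -0.56 and 0.55, with a median of 0.02. The difference of Prupe.2G326300 was close to that median, and 19.4% of annotated rows had a smaller one in size.

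Ranked within rows of similar abundance or similar structure, Prupe.6G235400 kept its place near the top. Both genes had a mean between 1 and 10 FPKM, a range that held 6543 annotated rows, of which 1.64% counted as higher. Prupe.6G235400 ranked 5 among them. Among 1658 measured genes of 2 exons, 2.9% counted as higher, and it ranked 6. By the plain ratio, with no pseudocount, it ranked 4 among 13496 annotated rows that reached 1 FPKM in both libraries. That filter leaves out rows under 1 FPKM with water, such as Prupe.3G163100 at 0.771 FPKM with water and 11.7 with yeast. Among annotated rows that reached 1 FPKM in either library, Prupe.6G235400 ranked 15 with a pseudocount of 0.1. The pseudocount of 0.1 was added for this rank after the values were seen. An expression of 2 FPKM or less with water and 10 FPKM or more with yeast was seen in 5 annotated rows, 0.035% of those measured, Prupe.6G235400 included. The opposite pattern was seen in 4 rows (0.028%). The limits of 2 and 10 FPKM were chosen after the values were seen.

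**Figure D2:**
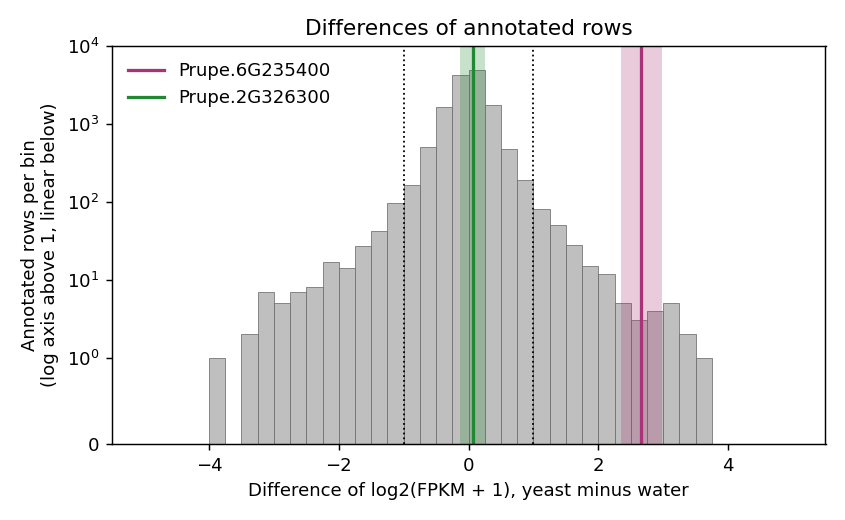
Number of annotated rows (vertical axis, logarithmic above 1) by difference of log2(FPKM + 1), yeast minus water, in bins of 0.25; coloured lines are the 2 genes, shaded bands their counting intervals, and dotted lines the limits of -1 and 1. Prupe.6G235400 lies at 2.65, in the thin upper tail, and Prupe.2G326300 at 0.06, in the centre.

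Within each library, Prupe.6G235400 stood at the lower edge of the rows that reached 1 FPKM with water and near their middle with yeast. In the water library it ranked 13651 of 26873 annotated rows, and 13863 rows reached 1 FPKM, so that 1.53% of the rows at or above 1 FPKM were less abundant. In the yeast library it ranked 6538, and 53.0% of the 13901 rows at or above 1 FPKM were less abundant. Its level was 0.102 times the median of those rows with water and 1.11 times the median with yeast. Counting error alone would let the rank lie between 13248 and 14065 with water and between 6278 and 6821 with yeast. Prupe.2G326300 ranked 8356 with water and 8271 with yeast, at 0.699 and 0.724 times the median. Neither gene was an abundant transcript of the wound in either library.

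**Figure D3:**
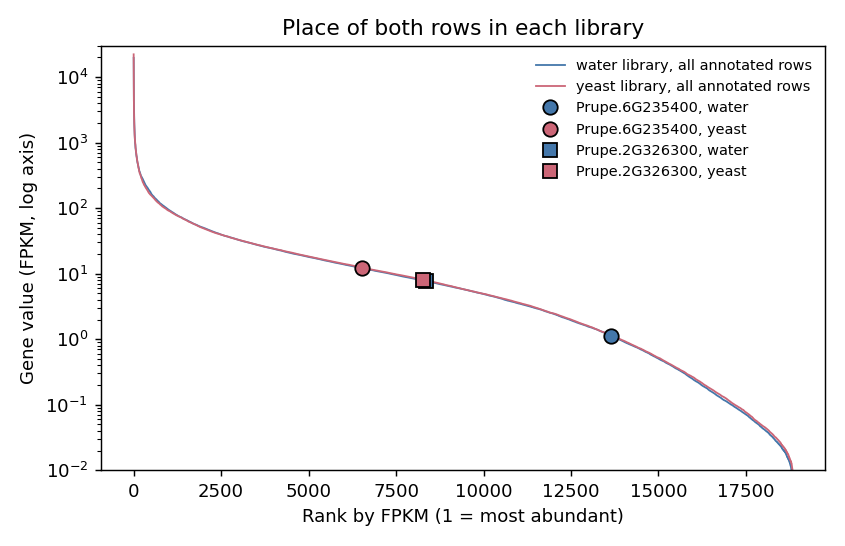
FPKM (vertical axis, logarithmic) against rank by FPKM (horizontal axis, 1 is the most abundant) for annotated rows of the water and the yeast library at or above 0.01 FPKM; circles mark Prupe.6G235400 and squares Prupe.2G326300. The curves of the 2 libraries nearly coincide, Prupe.6G235400 moves from rank 13651 to rank 6538, and Prupe.2G326300 is at ranks 8356 and 8271.

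By the gene values, the order of the 2 genes was opposite in the 2 libraries. With water, Prupe.2G326300 was 6.84 times as abundant as Prupe.6G235400, and Prupe.6G235400 made up 12.7% of their summed FPKM (counting interval 10.2% to 15.7%). With yeast, Prupe.6G235400 was 1.53 times as abundant as Prupe.2G326300 and made up 60.5% of the sum (57.4% to 63.5%). Nearly all fragments of Prupe.2G326300 were assigned to the newly assembled transcript described below. By inference, that transcript shares 1203 of the 1336 annotated exon bases. From annotated transcripts alone, Prupe.6G235400 made up 100% of the sum with water and 99.5% with yeast, and the order was the same in both libraries. Those shares leave out every fragment assigned to the new transcript, any on shared exon bases included. They therefore do not test the order of the genes. By the gene values, the sum was 8.82 FPKM with water and 20.5 FPKM with yeast. Since the listed transcripts of Prupe.2G326300 are too short for a full-length PAL, the sum is a sum over these identifiers. It is not a measure of total PAL transcript.

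The transcripts behind the gene values differed in kind. The value of Prupe.6G235400 is that of its single annotated transcript, with no newly assembled transcript listed at the locus, so no division of reads among isoforms enters it. The value of Prupe.2G326300 came almost wholly from MSTRG.5558.1, a newly assembled transcript of 6 exons and 1599 bases on the same strand, from 30109535 to 30112976. It had 8.33 FPKM with water and 8.71 FPKM with yeast. The annotated transcript of 4 exons was listed at 0 with water and at 0.063 FPKM with yeast, the latter on about 2 fragments. In the yeast library MSTRG.5558.1 therefore held 99.3% of the transcript FPKM of the gene.

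How the exons of these transcripts overlap was inferred from the gene value. Each transcript FPKM was multiplied by its transcript length, and the sum of the products was divided by the deposited gene value. This gave 1732 bases in both libraries. That number was taken as the union of the exons, and exon coordinates were not used. With 1732 bases as the union of the exons, the transcripts of Prupe.2G326300 share 1203 exon bases, 133 belong to the annotated transcript alone and 396 to the new one alone. The new transcript also reaches 476 bases farther at the lower coordinate, which is the 3′ side on the minus strand. Among 1620 annotated genes that have both annotated and new transcripts and 5 FPKM or more in both libraries, new transcripts held at least 99% of the FPKM in both libraries in 175 genes (10.8%), Prupe.2G326300 included. No transcript of another gene overlaps either locus on either strand, and no other row (0) shares the pair of values of either gene. Reads from close copies elsewhere in the genome could still be shared, since the sources used here do not say how reads with several matches were treated.

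None of the measured genes next to Prupe.6G235400 had a difference of its size. On the lower-coordinate side, a single-exon gene 1654 bases away was listed at 0 in both libraries, and a gene of 7 exons beyond it had 70.2 FPKM with water and 62.9 FPKM with yeast. On the other side, a gene of 2 exons 8567 bases away had 2.34 and 4.06 FPKM, a difference of 0.60, and a gene of 8 exons had 42.4 and 56.5 FPKM, a difference of 0.41. Of 10 annotated neighbours, 5 on each side, 8 reached 1 FPKM in a library. Their differences ran from -0.39 to 0.65, and none (0) counted by the rule that 3.03% of annotated rows met. On the higher-coordinate side, Prupe.6G235500, Prupe.6G235700 and Prupe.6G235800 had differences of 0.60, 0.57 and 0.65. These lay above 0.55, the upper end of the central 90% of annotated rows. The farthest neighbour on that side was at -0.39.

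Around Prupe.2G326300, the 2 nearest genes on each side did not count as higher or lower. A gene of 14 exons 3281 bases from the annotated span had 10.5 FPKM with water and 9.79 FPKM with yeast, and the single-exon gene beyond it was listed at 0 in both. On the other side, a gene of 8 exons had 6.83 and 4.83 FPKM, a difference of -0.43. The gene of 3 exons beyond it was the most abundant of this neighbourhood, with 336 and 328 FPKM. Of 10 neighbours, 9 reached 1 FPKM, and 1 of them counted as higher with the yeast, as did 1.45% of annotated rows. It lies on Pp02 from 30124610 to 30130441, has 4 exons, and had 42.0 FPKM with water and 108 FPKM with yeast, a difference of 1.34.

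**Figure D4:**
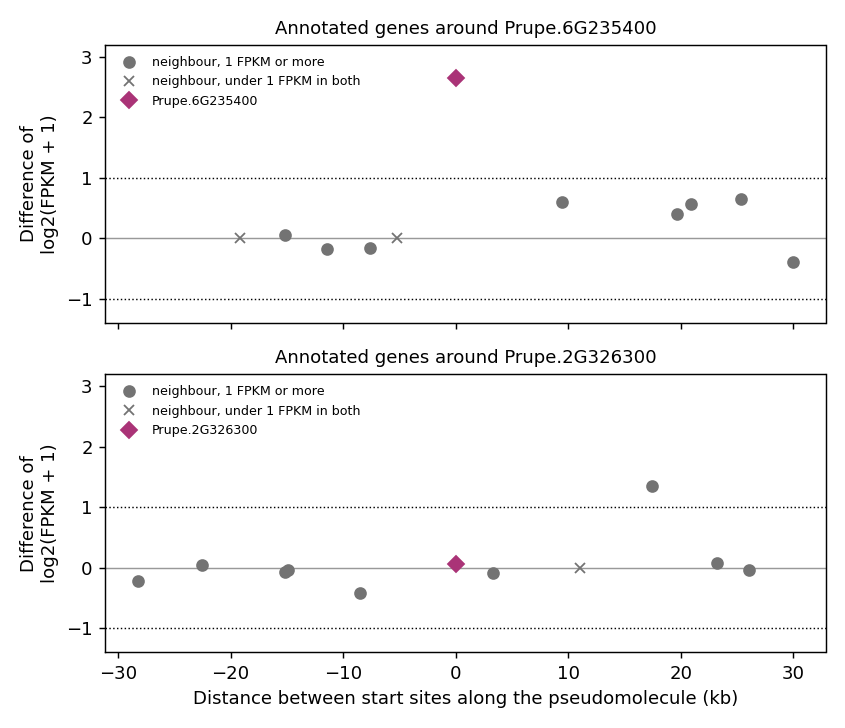
Difference of log2(FPKM + 1), yeast minus water (vertical axis), of each gene (diamond) and its 5 nearest annotated genes on each side, against the distance between start sites in kb (horizontal axis); crosses are genes under 1 FPKM in both libraries, drawn at 0, and dotted lines mark -1 and 1. Prupe.6G235400 stands at 2.65 above neighbours between -0.39 and 0.65, and Prupe.2G326300 at 0.06 has 1 neighbour above the upper line, at 1.34.

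The annotated rows whose pair of levels was most like that of each gene were found by the Euclidean distance of log2(FPKM + 1) over the 2 libraries. Nearest to Prupe.6G235400 were Prupe.3G163100, a gene of 3 exons with 0.771 FPKM with water and 11.7 FPKM with yeast, and Prupe.1G140900, a gene of 2 exons with 1.26 and 10.2 FPKM. Their distances were 0.27 and 0.28. Nearest to Prupe.2G326300 were Prupe.6G316100, with 7.72 and 8.12 FPKM, and Prupe.3G212600, with 7.72 and 8.02 FPKM, at distances of 0.0059 and 0.012. The nearest rows were thus farther from the first gene than from the second. With only 2 libraries, such likeness rests on a pair of values per gene.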

How the data were processed

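RNA from wound tissue was sequenced in 2 libraries, 1 per treatment, grouped by the treatment label. Per the submitters' processing notes, HISAT2 and HTSeq 0.6.1 were among the tools. The sources used here do not give the genome build, the annotation, the assembler or the strandedness. FPKM values were deposited by the authors for 27806 gene rows and 51199 transcripts, and coverage, a signal, was deposited by the authors as mean reads per base of each transcript. Coordinates are those of the deposited tables, counted from 1.

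Fragments were estimated here as coverage times length over 300 bases. This was the commonest rounded product of coverage and length among transcripts with any coverage, in both libraries. Over the listed transcripts they added up to about 25300000 with water and 24000000 with yeast. Poisson intervals and ratio intervals (Clopper-Pearson) are exact for these estimated fragments, at 95%, and cover counting error only. Their width depends on the 300 bases. With 150 bases, the ratio intervals were 9.34 to 13.0 for Prupe.6G235400 and 0.946 to 1.17 for Prupe.2G326300. Differences used a pseudocount of 1 and a filter of 1 FPKM in at least 1 library, and understate the change of low genes. Ranks run from the highest FPKM. The call rule and intervals were tried on simulated data that held counting error only, with no variation between fruit. For the call rule, changed rows were scored only from 5 FPKM with water, a level above that of Prupe.6G235400. Python 3.11.15, pandas 2.3.3 and scipy 1.17.1 were used.

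Looked up in the RefSeq gene table of Prunus_persica_NCBIv2, 0 identifiers were found, so lists of pathway enzymes and tissue markers, fixed by product name, could not be applied, and the tissue label was not checked against markers. Promoter and protein sequences and the RT-qPCR named in the design were not used here. The members and lists were chosen with earlier results of these data known. Named besides both genes were their transcripts, the 2 nearest annotated genes on each side and the 2 rows most alike in level; the other neighbours, the neighbour that counted as higher included, were added after the values were seen.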

Additional observations from a re-analysis of the deposited data

How the results depend on the processing

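The order of the 2 genes in the water library reversed with annotated transcripts alone. Prupe.6G235400 then made up 100% of the summed FPKM of both genes, compared with 12.7% by the gene values. With yeast it made up 99.5%, so the order no longer differed between the libraries. These shares leave out fragments assigned to the new transcript, any on shared exon bases included, so they do not test the order. By fragments, which are not per length, Prupe.6G235400 made up 18.1% and 69.8%. The difference of Prupe.6G235400 was 3.35 with a pseudocount of 0.1 and 1.50 with a pseudocount of 5, as the construction of the scale implies for a low gene, and 2.63 and 2.62 under upper quartile and trimmed mean scaling. Its upward rank of 15 became 28 with a pseudocount of 5, an alternative added after seeing the data. With new loci included, its rank by FPKM in the water library was 14377. With annotated transcripts alone, it ranked 12629 with water and 6156 with yeast, and Prupe.2G326300 ranked 18520 and 17240, because its annotated transcript was listed at 0 or nearly so. The counts of 244 higher and 258 lower rows were 491 and 447 with a pseudocount of 0.1 and 87 and 87 with a pseudocount of 5. With a filter of 5 FPKM they were 163 and 164. Several alternatives could not change a value by construction: the ratios with fewer bases per fragment, the ranks among rows of at least 1 FPKM, the annotated transcript sum and leading share of Prupe.6G235400 with its single transcript, and the counts without a filter. The difference and ratio of Prupe.2G326300 from its annotated transcript were not given, as that transcript is listed at 0 with water. The lists by product name were not run. No paired analysis was possible because the treatments have 1 library each, which also leaves no library to omit. Depth limits the fold of Prupe.6G235400 through its 79 fragments in the water library.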
